A study of Homo sapiens with 12 samples.

Results

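The 10 genes described here were EGR1, EGR2, EGR3, EGR4, NR4A1, NR4A2, NR4A3, IER2, SRF and NAB2, chosen by name out of the 61209 gene names of the count table. Their messenger levels were measured by RNA sequencing in A375 cells, an established human melanoma line. The libraries fell into 4 groups of 3: starved OGDH-depleted cells, OGDH-depleted cells with glucose, starved control cells, and control cells with glucose. Starved cells were held without glucose for 5 h, and cells kept with glucose are called fed below. The product of OGDH is part of the 2-oxoglutarate dehydrogenase complex, a step of the tricarboxylic acid cycle. Titles of the depleted samples read KO while the series text has knockdown, and neither states the reagent, or whether the cells were a clone or a pool.

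Immediate early genes are transcribed soon after a stimulus without new protein synthesis. SRF, a DNA-binding factor that is present beforehand, sits on CArG boxes with ERK-regulated ternary complex partners or actin-regulated MRTF partners, and CREB family factors act on neighbouring sites. The EGR proteins are zinc finger transcription factors that bind GC-rich sites, and NAB2 is a corepressor that binds to them. The NR4A proteins are orphan nuclear receptors that act without a classical ligand, so their activity follows largely from how much of them is made. IER2 is a small nuclear protein of the same early response. A375 carries an activated BRAF kinase, so the ERK pathway that feeds several of these promoters is constitutively active.

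Libraries held 21556273 to 25546615 counted fragments. OGDH stood at 32.3 to 33.9 CPM in starved OGDH-depleted and 36.3 to 45.1 CPM in fed OGDH-depleted libraries, against 129 to 133 CPM in starved control and 142 to 166 CPM in fed control libraries, as their labels say. CPM is the count of a gene relative to the scaled size of its library. Of a list of melanocyte lineage and melanoma markers, SOX10 averaged 348 to 633 CPM over the 4 groups and MITF 25.9 to 44.2 CPM. The melanoma genes AXL and NGFR on that list averaged 364 to 629 CPM and 47.1 to 130 CPM. Others on it were low: S100B, S100A1, MIA and DCT reached at most 1.82, 2.93, 0.884 and 0.662 CPM in any library. The pigment genes PMEL, MLANA and TYR reached at most 1.56, 1.46 and 0.0561 CPM in any library. Summed markers of blood, endothelium, epithelium and of neurons and glia reached at most 2.54, 0.884, 0.476 and 3.92 CPM in any library. Whether the replicates of a group were separate cultures is not stated, and p-values here therefore reflect library-to-library spread that may be technical. In bulk libraries, more cells with a transcript and more transcript per cell cannot be told apart.

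Replicates differed in composition. Mitochondrially encoded transcripts took 3.06%, 5.12% and 9.71% of the counts in starved OGDH-depleted replicates 1, 2 and 3, and 5.16% to 6.98% in fed OGDH-depleted libraries. In starved control replicates they took 14.4%, 13.2% and 4.11%, and in fed control replicates 4.97%, 14.6% and 6.35%. Replicate 2 of the fed control cells, and replicate 3 in both starved groups, therefore stood apart from the other libraries of their groups, and results that rest on them are given with and without them.

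Glucose starvation raised most of the 10 genes in both kinds of cell. Summed over the 10, they held 0.269% to 0.438% of the counts in starved OGDH-depleted libraries, against 0.0571% to 0.0621% in fed OGDH-depleted libraries. In control cells the share was 0.201% to 0.296% in starved libraries, against 0.0557% to 0.0601% in fed ones. EGR1 alone made up 64.5% to 84.1% of the summed CPM in starved OGDH-depleted and 24.9% to 32.5% in fed OGDH-depleted libraries, and 51.4% to 75.7% in starved control and 32.3% to 60.4% in fed control libraries. All 10 genes passed the filter on low counts, and edgeR's quasi-likelihood test with Benjamini-Hochberg adjustment over the 18526 genes tested was used throughout, with a gene called where the adjusted p was under 0.05.

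Starvation of OGDH-depleted cells raised 6 of the 10 genes (EGR1, EGR2, EGR3, NR4A1, NR4A2 and NR4A3) and lowered none. The background was 2.42% of all tested genes called higher and 4.76% called lower. Starvation of control cells raised 8 of the 10, the same 6 with EGR4 and IER2, and lowered none, where 17% of all tested genes were called higher and 17.5% lower. The median log2 fold change of the 10 was 1.80 in OGDH-depleted cells and 2.07 in control cells, against medians of 0.02 and -0.02 over all tested genes.

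**Figure D1:**
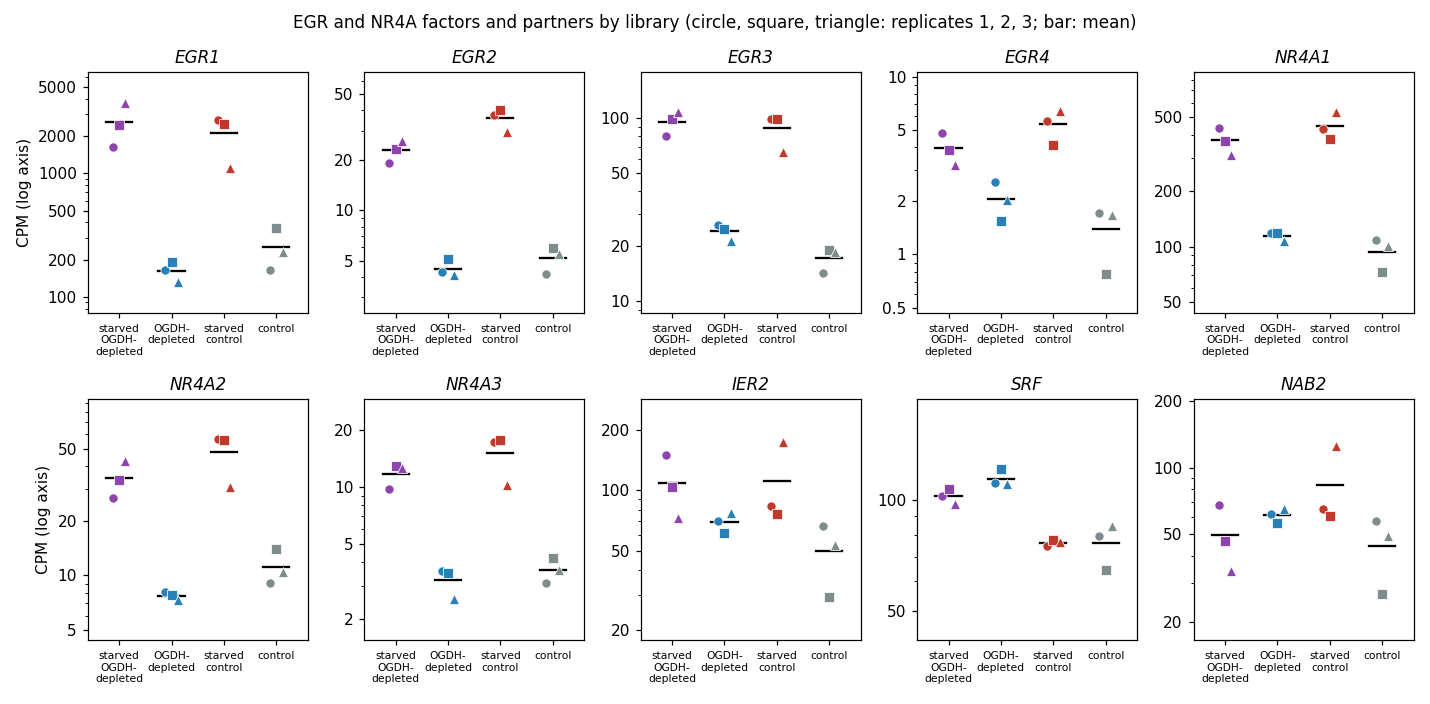
CPM of the 10 genes on log axes in starved OGDH-depleted, fed OGDH-depleted, starved control and fed control libraries, with 1 point per library (circle, square and triangle for replicates 1, 2 and 3) and a bar at the group mean. EGR1, EGR2, EGR3, EGR4 and the 3 NR4A genes lie above the fed libraries in all starved libraries of both kinds of cell, whereas SRF is separated by OGDH status.

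EGR1 (chromosome 5, 138465479 to 138469303, plus strand, hg38) is the founding EGR factor and a classic target of SRF. It had 1632, 2444 and 3743 CPM in starved OGDH-depleted replicates 1, 2 and 3, against 166, 192 and 131 CPM in fed OGDH-depleted replicates 1, 2 and 3. Starved control replicates had 2712, 2516 and 1111 CPM, against 164, 361 and 230 CPM in fed control replicates. Starved and fed libraries did not overlap in either kind of cell, although starved libraries of 1 group differed among themselves by up to 2.44-fold. The rise was 16-fold in OGDH-depleted cells (log2 4.0, SE 0.43, adjusted p = 3.2e-04) and 8.39-fold in control cells (log2 3.07, SE 0.42, adjusted p = 1.8e-04). Without the 3 libraries that stood apart these log2 values were 3.62 (adjusted p = 5.5e-07) in OGDH-depleted and 3.72 (adjusted p = 1.5e-07) in control cells. Of all tested genes, 17.6% and 60.5% were then called in these comparisons. Mitochondrial transcripts took 14.4% and 13.2% in the starved control libraries left, against 4.97% and 6.35% in fed control ones. Composition and starvation cannot be told apart among those control libraries, for EGR1 or for the genes below.

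EGR2 (chromosome 10, 62811996 to 62819167, minus strand, hg38), a factor best known from hindbrain patterning and myelination, had 19.2, 23.5 and 26.1 CPM in starved OGDH-depleted replicates, against 4.24, 5.08 and 4.07 CPM in fed ones. Its level in starved control replicates was 37.4, 40.3 and 29.5 CPM, against 4.16, 5.97 and 5.48 CPM in fed control replicates. Every starved control library lay above every starved OGDH-depleted library, while the fed libraries of both kinds of cell overlapped. EGR2 rose 5.14-fold in OGDH-depleted cells (log2 2.36, SE 0.18, adjusted p = 3.2e-05) and 6.86-fold in control cells (log2 2.78, SE 0.18, adjusted p = 7.4e-07). Its libraries spread less than those of EGR1: the highest library of a group was 1.25 to 1.43 times the lowest, against 1.46 to 2.44 times for EGR1.

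The bases just upstream of the EGR1 start and of the EGR2 start nearest the coding exons are shown because both hold CArG boxes, the sites that SRF binds. Capitals mark CArG boxes, short CREB sites (TGACG) and the EGR site (GCGNGGGCG), each searched on both strands. The sequences are from RefSeq (GRCh38.p14), at chr5:138465229-138465478 on the plus strand and chr10:62816374-62816616 on the minus strand.
EGR1: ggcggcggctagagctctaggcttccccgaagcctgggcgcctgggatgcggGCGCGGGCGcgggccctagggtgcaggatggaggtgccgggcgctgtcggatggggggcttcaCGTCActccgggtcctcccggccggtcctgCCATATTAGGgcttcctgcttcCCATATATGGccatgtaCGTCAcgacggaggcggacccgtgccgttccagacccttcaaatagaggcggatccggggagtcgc
EGR2: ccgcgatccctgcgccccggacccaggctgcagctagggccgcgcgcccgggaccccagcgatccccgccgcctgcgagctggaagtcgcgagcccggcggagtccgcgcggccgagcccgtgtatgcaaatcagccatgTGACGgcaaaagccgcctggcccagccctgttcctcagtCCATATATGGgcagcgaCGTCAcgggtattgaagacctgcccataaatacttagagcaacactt
The EGR1 window held 2 CArG boxes, beginning 105 and 83 bases before the start, with short CREB sites beginning 135 and 66 bases before it and an EGR site at 198. The EGR2 window held 1 CArG box, beginning 71 bases before the RefSeq start, between short CREB sites at 110 and 54. The 7 bases nearest that start, which another annotated transcript covers, are not printed. The other 2 listed starts of EGR2 held none of these motifs in their upstream 250 bases. In EGR1 and EGR2 alike a short CREB site followed shortly after the CArG box nearest the start.

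EGR3 (chromosome 8, 22687659 to 22693480, minus strand, hg38), a relative known for its induction in activated lymphocytes, had 80.2, 98.8 and 108 CPM in starved OGDH-depleted replicates, against 26.1, 24.9 and 21.2 CPM in fed ones. In control cells it had 99.5, 99.5 and 65.2 CPM in starved replicates, against 14.3, 19.0 and 18.5 CPM in fed ones. The fed OGDH-depleted libraries all lay above the fed control libraries, and the starved libraries overlapped. EGR3 rose 3.97-fold in OGDH-depleted cells (log2 1.99, SE 0.19, adjusted p = 1.3e-04) and 5.10-fold in control cells (log2 2.35, SE 0.19, adjusted p = 3.6e-06).

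EGR4 (chromosome 2, 73290929 to 73293701, minus strand, hg38), the least studied EGR factor, was among the lowest of the 10 genes and rested on 18 to 152 counts a library. It had 4.85, 3.87 and 3.19 CPM in starved OGDH-depleted replicates, against 2.56, 1.55 and 2.02 CPM in fed ones, and 5.67, 4.14 and 6.4 CPM in starved control replicates, against 1.70, 0.779 and 1.67 CPM in fed ones. Starved and fed libraries did not overlap in either kind of cell. In control cells it rose 3.88-fold (log2 1.96, SE 0.30, adjusted p = 4.4e-04). In OGDH-depleted cells its log2 fold change of 0.96 (SE 0.29, adjusted p = 0.073) missed the threshold, and it passed with DESeq2 (adjusted p = 0.024), with a GC offset (1.32, adjusted p = 0.0012) and without the 3 libraries that stood apart (1.07, adjusted p = 0.0061).

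NR4A1 (chromosome 12, 52022832 to 52059507, plus strand, hg38), also known as Nur77, was the most abundant NR4A receptor. It had 440, 373 and 314 CPM in starved OGDH-depleted replicates, against 118, 118 and 107 CPM in fed ones. In control cells it had 432, 382 and 532 CPM in starved replicates, against 108, 72.5 and 101 CPM in fed ones. The starved libraries of both kinds of cell overlapped, and all lay above all fed libraries. NR4A1 rose 3.28-fold in OGDH-depleted cells (log2 1.72, SE 0.18, adjusted p = 2.6e-04) and 4.77-fold in control cells (log2 2.25, SE 0.18, adjusted p = 3.4e-06). Of its 7295 exonic bases, 754 are shared with NR4A1AS on the opposite strand, where fragments were not counted for either gene.

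NR4A2 (chromosome 2, 156324437 to 156342348, minus strand, hg38), also known as Nurr1 and required for dopaminergic neurons, had 26.7, 33.8 and 42.9 CPM in starved OGDH-depleted replicates, against 8.09, 7.77 and 7.28 CPM in fed ones. Among control cells, starved replicates had 56.6, 56.0 and 30.9 CPM, against 9.08, 14 and 10.4 CPM in fed ones. Starved libraries of both kinds of cell overlapped through starved control replicate 3, the lowest of its group, and fed OGDH-depleted libraries all lay below fed control ones. The rise was 4.46-fold in OGDH-depleted cells (log2 2.16, SE 0.26, adjusted p = 6.7e-04) and 4.29-fold in control cells (log2 2.10, SE 0.26, adjusted p = 8.0e-05).

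NR4A3 (chromosome 9, 99821855 to 99866891, plus strand, hg38), also known as NOR1, had 9.73, 13 and 12.6 CPM in starved OGDH-depleted replicates, against 3.6, 3.49 and 2.54 CPM in fed ones, and 17.4, 17.7 and 10.2 CPM in starved control replicates, against 3.09, 4.20 and 3.64 CPM in fed ones. Its libraries were ordered much like those of NR4A2: starved control replicate 3 was again the lowest of its group. NR4A3 rose 3.67-fold in OGDH-depleted cells (log2 1.87, SE 0.24, adjusted p = 9.2e-04) and 4.13-fold in control cells (log2 2.05, SE 0.24, adjusted p = 5.2e-05).

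The NR4A3 upstream sequence is shown because it held the most short CREB sites of the 8 genes searched and no CArG box. Capitals mark TGACG on either strand. The RefSeq sequence (GRCh38.p14) is chr9:99821635-99821854 on the plus strand.
NR4A3: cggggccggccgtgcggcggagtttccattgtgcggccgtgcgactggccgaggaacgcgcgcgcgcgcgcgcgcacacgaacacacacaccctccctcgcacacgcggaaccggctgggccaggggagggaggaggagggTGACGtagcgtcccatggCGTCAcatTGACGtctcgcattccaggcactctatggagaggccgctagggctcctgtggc
The window held 3 of the 4 short sites of the 250 bases, at 109, 91 and 83 bases before the RefSeq start, and the fourth, at 25, lies in the last 30 bases, which another annotated transcript covers and which are not printed. None of these joined into the full palindrome TGACGTCA.

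Over the 8 genes with a RefSeq promoter entry (12 starts), 3 (EGR1, EGR2 and SRF) held a CArG box in the 250 bases before a start, against 1.16% of the 35116 promoters of the same length. short CREB sites were in 6 of the 8 genes against 21.2% of all promoters. The EGR site was in 3 (EGR1, SRF and NAB2) against 8.41%, and the ETS core CCGGAA in 3 (NR4A1, IER2 and SRF) against 14.5%. The full CREB site was in 0 of the 8 genes against 1.65%. EGR3 and NR4A2 were not searched. A match is a description of the letters, and genes with several starts had more bases searched.

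IER2 (chromosome 19, 13150411 to 13154911, plus strand, hg38) had 150, 104 and 72.6 CPM in starved OGDH-depleted replicates, against 70.1, 61.4 and 77.4 CPM in fed ones, and these groups overlapped. In control cells it had 83.3, 76.2 and 174 CPM in starved replicates, against 66.5, 29.2 and 53.0 CPM in fed ones, and these did not overlap. Starved control replicate 3 stood far above the rest of its group. The log2 fold change was 0.64 in OGDH-depleted cells (SE 0.37, adjusted p = 0.30) and 1.16 in control cells (SE 0.37, adjusted p = 0.030). Without starved control replicate 3 the value in control cells was 0.68 (adjusted p = 0.12), and the call was also lost without fed control replicate 2 (0.89, adjusted p = 0.075) or 3 (1.21, adjusted p = 0.072). In OGDH-depleted cells IER2 passed with a GC offset (0.92, adjusted p = 0.015) and without the 3 libraries that stood apart (0.84, adjusted p = 0.0025). Without those libraries the control value was 0.41 (adjusted p = 0.052). Of its 3079 exonic bases, 1608 are shared with transcripts on the opposite strand and yielded no counts, so its level leaves out that length.

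SRF (chromosome 6, 43171269 to 43181506, plus strand, hg38), the factor upstream of EGR1 and EGR2, was not called for starvation in either kind of cell. It had 102, 107 and 97.1 CPM in starved OGDH-depleted replicates, against 111, 121 and 110 CPM in fed ones, and 74.7, 77.8 and 76.8 CPM in starved control replicates, against 79.9, 64.3 and 84.8 CPM in fed ones. All 6 OGDH-depleted libraries lay above all 6 control libraries. Starved OGDH-depleted libraries all lay below the fed ones, while starved and fed control libraries overlapped. The starvation log2 fold change was -0.15 in OGDH-depleted cells (95% interval -0.39 to 0.08, adjusted p = 0.38) and 0.00 in control cells (-0.23 to 0.24, adjusted p = 0.99). The sign in control cells turned under other scalings, from -0.29 with library totals alone to 0.20 with a GC offset.

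The SRF upstream sequence is shown because its own promoter carries CArG boxes, the sites that SRF binds. CArG boxes, a short CREB site and an EGR site are in capitals. The RefSeq sequence (GRCh38.p14) is chr6:43171019-43171268 on the plus strand.
SRF: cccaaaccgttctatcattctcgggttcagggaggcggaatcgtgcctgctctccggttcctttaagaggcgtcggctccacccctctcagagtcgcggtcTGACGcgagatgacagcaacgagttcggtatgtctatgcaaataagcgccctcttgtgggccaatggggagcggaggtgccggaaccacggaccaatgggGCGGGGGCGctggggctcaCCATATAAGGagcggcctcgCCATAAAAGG
The CArG boxes begin 30 and 10 bases before the start, closer to it than those of EGR1 and EGR2, and the EGR site begins 49 bases before it. An ETS core, not in capitals, begins 70 bases before the start.

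NAB2 (chromosome 12, 57089043 to 57095476, plus strand, hg38), the corepressor that EGR factors can induce in feedback, had 67.5, 46.7 and 34.0 CPM in starved OGDH-depleted replicates, against 61.8, 56.2 and 64.9 CPM in fed ones, and these groups overlapped. In control cells it had 65.0, 60.7 and 126 CPM in starved replicates, against 57.3, 26.9 and 49.2 CPM in fed ones. Starved control libraries lay above the fed ones, with replicate 3 far above the others. The log2 fold change was -0.30 in OGDH-depleted cells (SE 0.34, adjusted p = 0.59) and 0.92 in control cells (SE 0.34, adjusted p = 0.056). The control value passed with DESeq2 (0.94, adjusted p = 0.026), with a GC offset (1.11, adjusted p = 1.9e-04), and without starved control replicate 2 (1.11, adjusted p = 0.044) or fed control replicate 1 (1.14, adjusted p = 0.047). Without the 3 libraries that stood apart it was 0.23 (adjusted p = 0.19).

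**Figure D2:**
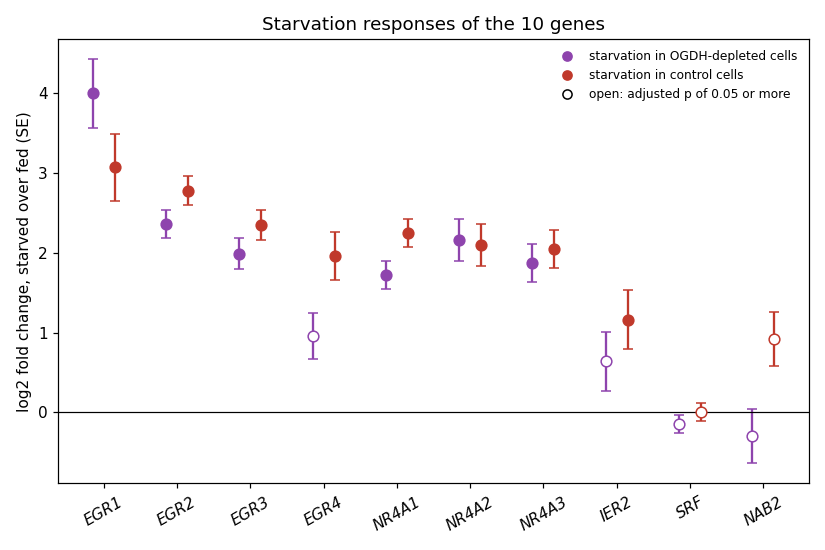
Log2 fold change of each gene, starved over fed, in OGDH-depleted cells (purple, left) and in control cells (red, right), with bars of 1 SE from edgeR over 12 libraries; filled points have an adjusted p under 0.05. EGR1 has the greatest value in both, 4.0 in OGDH-depleted and 3.07 in control cells, and SRF lies nearest to 0 in control cells.

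Levels per length set the genes in order within a group. EGR1 had the highest mean in all 4 groups, at 831 RPKM in starved OGDH-depleted, 52.0 RPKM in fed OGDH-depleted, 674 RPKM in starved control and 80.3 RPKM in fed control cells. The place after it depended on the length used for IER2, most of whose exonic bases yield no counts. Over the full exonic length NR4A1 came next in both starved groups (51.4 RPKM in OGDH-depleted and 61.5 RPKM in control cells), where it overlapped IER2, and SRF in both fed groups (26.9 RPKM in OGDH-depleted and 18 RPKM in control cells). With shared bases left out of the length, a choice made after seeing the data, IER2 came next in all 4 groups, at 74.0 RPKM in starved and 47.3 RPKM in fed OGDH-depleted cells, and 75.4 RPKM in starved and 33.7 RPKM in fed control cells. It then overlapped NR4A1 in both starved groups, SRF in fed control cells and EGR1 in fed OGDH-depleted cells. EGR4 and NR4A3 were the lowest in all 4 groups with either length, at 1.67 and 1.86 RPKM in starved OGDH-depleted, 0.860 and 0.508 RPKM in fed OGDH-depleted, 2.28 and 2.39 RPKM in starved control, and 0.584 and 0.577 RPKM in fed control cells. Those neighbours overlapped in every group except fed OGDH-depleted cells. RPKM is the CPM per kilobase of the exonic length in the count table.

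OGDH loss in fed cells was compared to ask what depletion does before glucose is withdrawn, and SRF was the 1 gene of the 10 that was called. SRF averaged 114 ± 5.89 CPM in fed OGDH-depleted cells and 76.3 ± 10.7 CPM in fed control cells (SD, n = 3 each), a 1.49-fold rise (log2 0.58, SE 0.11, adjusted p = 0.016). The background for OGDH loss with glucose was 1.59% of all tested genes called higher and 1.45% lower. The SRF call was lost with a GC offset (0.39, adjusted p = 0.11), in a fit of the compared groups alone (0.57, adjusted p = 0.096) and without OGDH-depleted replicate 1, 2 or 3 (0.59, 0.53 and 0.60, adjusted p = 0.071, 0.085 and 0.052). EGR3 averaged 24.1 ± 2.57 CPM in fed OGDH-depleted and 17.3 ± 2.57 CPM in fed control cells, without overlap (log2 0.48, SE 0.19, adjusted p = 0.22), and it passed without the 3 libraries that stood apart (0.54, adjusted p = 0.023). NR4A2 averaged 7.71 ± 0.406 CPM in fed OGDH-depleted and 11.1 ± 2.54 CPM in fed control cells, also without overlap (log2 -0.53, SE 0.25, adjusted p = 0.34). For EGR1 the log2 fold change was -0.63, with a 95% interval of -1.48 to 0.22.

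In starved cells, OGDH loss left SRF higher and EGR2 lower. SRF averaged 102 ± 5.04 CPM in starved OGDH-depleted and 76.4 ± 1.54 CPM in starved control cells (log2 0.42, SE 0.11, adjusted p = 0.012), and it kept an adjusted p of 0.016 to 0.049 when each of the 6 libraries was left out in turn, but reached 0.064 with a GC offset (0.35). EGR2 averaged 22.9 ± 3.46 CPM in starved OGDH-depleted and 35.7 ± 5.60 CPM in starved control cells (log2 -0.64, SE 0.17, adjusted p = 0.015). Its call was lost without starved control replicate 2 (-0.55, adjusted p = 0.060) or starved OGDH-depleted replicate 1 (-0.52, adjusted p = 0.059). For OGDH loss without glucose 13.7% of all tested genes were called higher and 15% lower, so 1 gene higher and 1 lower of the 10 is near the background.

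The other 8 genes did not pass in that comparison. EGR1 averaged 2606 ± 1064 CPM in starved OGDH-depleted and 2113 ± 873 CPM in starved control cells (log2 0.30, 95% interval -0.54 to 1.15), so its direction was within the error. NR4A1 averaged 375 ± 63.1 CPM in starved OGDH-depleted and 448 ± 76.2 CPM in starved control cells (log2 -0.26, 95% interval -0.64 to 0.12). NAB2 had the largest difference of the 8 (-0.76, SE 0.34, adjusted p = 0.12), which was -0.16 without the 3 libraries that stood apart. With a GC offset NAB2 (-0.83, adjusted p = 0.0017), EGR4 (-0.57, adjusted p = 0.024) and NR4A1 (-0.32, adjusted p = 0.0022) passed as lower. NR4A2 stood at -0.47 (SE 0.24, adjusted p = 0.17) and NR4A3 at -0.36 (SE 0.22, adjusted p = 0.26). Without starved control replicate 3 these 2 receptors passed, at -0.71 (adjusted p = 0.022) for NR4A2 and -0.57 (adjusted p = 0.035) for NR4A3. IER2 stood at -0.03 (adjusted p = 0.96) with all libraries and at 0.65 (adjusted p = 0.0060) without the 3 libraries that stood apart. On the same 9 libraries NR4A2 stood at -0.92 (adjusted p = 4.0e-05) and EGR1 at -0.38 (adjusted p = 0.14). Of all tested genes, 39.2% were called in this comparison with the GC offset and 52.6% without the 3 libraries. Mitochondrial transcripts took 3.06% and 5.12% in the starved OGDH-depleted libraries left then, against 14.4% and 13.2% in starved control ones. Composition and OGDH status cannot be told apart among them.

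Whether the starvation response itself differed with OGDH status was tested as the interaction, the response in OGDH-depleted cells minus that in control cells. By edgeR 0 of the 10 genes passed, 2 had an unadjusted p under 0.05, and DESeq2 called 0. Over all tested genes 8.30% were called higher and 8.95% lower. The genes with the smallest p were NAB2 (-1.22, SE 0.48, 95% interval -2.26 to -0.17, adjusted p = 0.11) and EGR4 (-1.0, SE 0.42, 95% interval -1.91 to -0.08, adjusted p = 0.13). NR4A1 stood at -0.54 (95% interval -1.08 to 0.00, adjusted p = 0.17). EGR1 had the largest positive value, 0.93 (95% interval -0.27 to 2.13, adjusted p = 0.29). NR4A2 was at 0.06 with an interval of -0.71 to 0.83, and SRF at -0.16 with one of -0.49 to 0.17. These intervals do not show that the responses were alike.

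The interaction depended on how the composition of the libraries was handled. With a GC offset, EGR4 (-0.92, adjusted p = 0.026), NR4A1 (-0.45, adjusted p = 0.0037) and NAB2 (-1.13, adjusted p = 0.0037) passed, each with a weaker response in OGDH-depleted cells. Without the 3 libraries that stood apart, EGR2 (-0.76, adjusted p = 0.011), EGR3 (-0.72, adjusted p = 0.0081) and NR4A2 (-0.58, adjusted p = 0.015) passed instead, and EGR1 moved to -0.10 (adjusted p = 0.81). These sets share no gene. Calls in the interaction were also common among all tested genes under these settings. The share called in either direction was 26.8% with the GC offset and 43.0% without the 3 libraries. In the libraries left then, mitochondrial transcripts took 3.06% and 5.12% in starved OGDH-depleted cells, against 14.4% and 13.2% in starved control cells, so composition and OGDH status cannot be told apart among them.

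**Figure D3:**
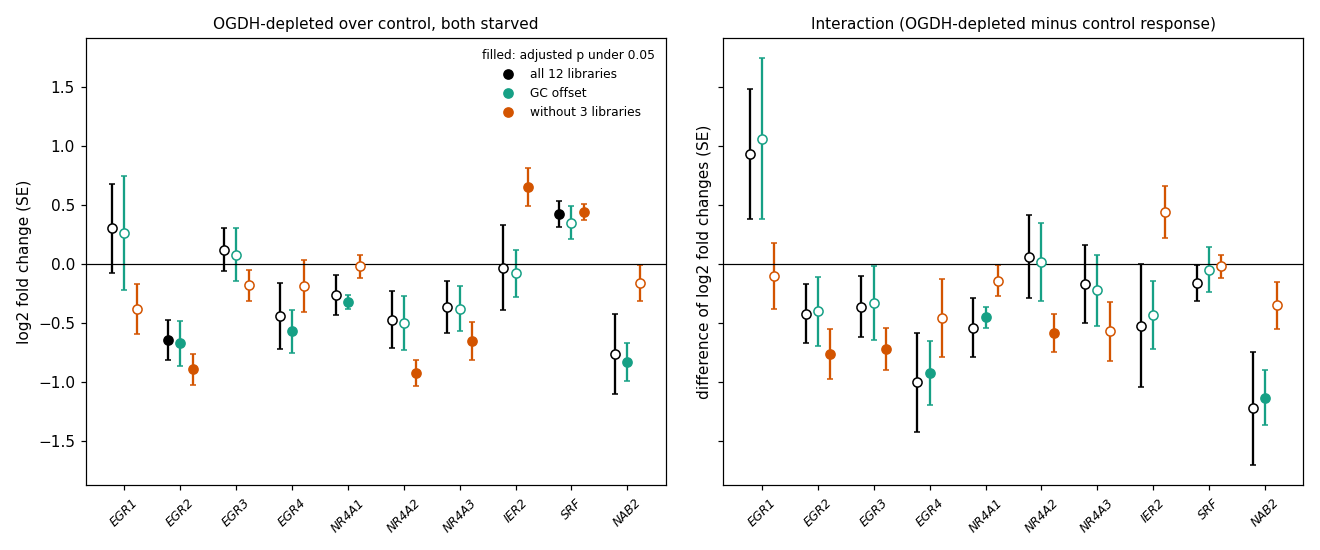
Log2 fold change of OGDH-depleted over control cells when both were starved (left panel) and the interaction (right panel), with bars of 1 SE, with all 12 libraries (black), a GC offset (green) and without the 3 libraries that stood apart (orange); filled points have an adjusted p under 0.05. EGR1 lies at 0.93 in the interaction with all libraries and at -0.10 without the 3, and NAB2 at -1.22 and -0.35.

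Within groups the 10 genes divided in how their libraries deviated. In starved OGDH-depleted cells EGR1 deviated from the group mean of log2 CPM by -0.59, -0.01 and 0.60 in replicates 1, 2 and 3, and NAB2 by 0.51, -0.02 and -0.48. In starved control cells EGR1 deviated by 0.47, 0.36 and -0.82, and NAB2 by -0.28, -0.38 and 0.67. In fed control cells EGR1 deviated by -0.54, 0.60 and -0.05, and NAB2 by 0.44, -0.65 and 0.22. In these 3 groups the replicate lowest in EGR1 was the highest in NAB2, and IER2, NR4A1 and EGR4 followed NAB2, while EGR2 and NR4A2 had the same lowest replicate as EGR1. The fed OGDH-depleted libraries deviated less, with EGR1 at 0.04, 0.25 and -0.29 and NAB2 at 0.02, -0.11 and 0.09.

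**Figure D4:**
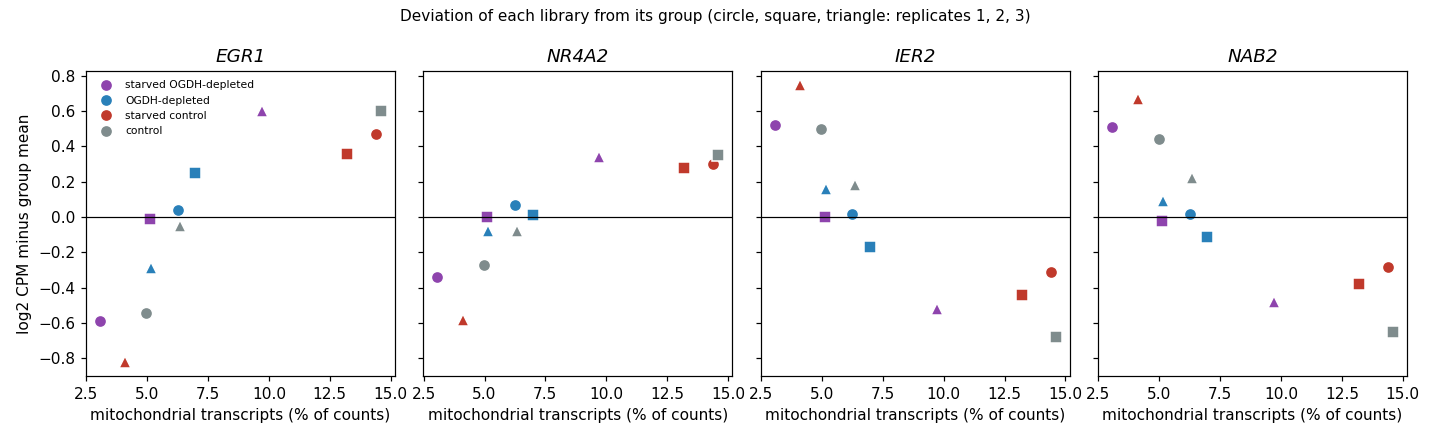
Deviation of log2 CPM from the group mean against the share of mitochondrially encoded transcripts (% of counts) for EGR1, NR4A2, IER2 and NAB2, with 1 point per library coloured by group. EGR1 ranges from -0.82 in the starved control library with 4.11% to 0.47 in the one with 14.4%, and IER2 goes the other way, with 0.75 and -0.31 in these libraries.

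Base composition moved with the same libraries. The slope of log2 deviation on gene GC content, per 10 percentage points over 10561 genes, was 0.18, 0.04 and -0.22 in starved OGDH-depleted replicates, 0.26 in starved control replicate 3 against -0.11 and -0.15 in replicates 1 and 2, and -0.31 in fed control replicate 2 against 0.18 and 0.13 in replicates 1 and 3. In all 3 fed OGDH-depleted libraries it rounded to 0. NAB2, IER2, NR4A1 and EGR4 have a transcript GC content of 62.6%, 61.7%, 59.8% and 66.0%, above 92.9%, 91.2%, 86.1% and 97.8% of the tested genes that have a value. NR4A2 and NR4A3 lie at 47.9% and 46.9%, near the middle. EGR1 deviated in the direction of NR4A2, and the GC content of EGR1, 55.4%, is above that of 73.5% of the genes. SRF, at 60.9%, deviated by -0.24 to 0.16. With the GC offset the SE of the EGR1 interaction was 0.68, against 0.55 without it, and that of NAB2 was 0.23 against 0.48. The part of composition in these results was not tested beyond these values.

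The genes whose levels over the 12 libraries were most like those of EGR1, NR4A1 and SRF were found among 11692 genes with at least 5 CPM in their highest group, by the root mean square (RMS) difference of centred log2 CPM. Outside the 10 genes, the nearest to EGR1 were ZFP36 (0.76), which encodes an mRNA-destabilising protein, FOSB (0.81), an AP-1 subunit, and IL6 (0.82), a cytokine. Those nearest to NR4A1 were NUAK2 (0.19), a kinase related to AMPK, YOD1 (0.26), a deubiquitinase, and JUN (0.28), an AP-1 subunit. SRF was nearest to CALCOCO1 (0.07), ROBO3 (0.10) and ABHD4 (0.11). Among the 10 genes the closest pair was NR4A2 and NR4A3, at an RMS difference of 0.20, and EGR1 was nearest to EGR2 at 0.66.

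The regulators and partners around these genes were then described from lists, whose counts stand beside the shares of all tested genes: 2.42% higher and 4.76% lower for starvation of OGDH-depleted cells, 17% and 17.5% for control cells, and 8.30% and 8.95% for the interaction. Of 29 other immediate early genes, 15 rose and 1 fell on starvation of OGDH-depleted cells (median 0.58), and 27 rose and 0 fell in control cells (median 2.06). BTG2, which encodes an antiproliferative protein, was the one that fell (-0.90, adjusted p = 1.8e-04), and it is named because its count was small. FOS, an AP-1 subunit, averaged 245 ± 13.6 CPM in starved and 11.5 ± 0.787 CPM in fed OGDH-depleted cells, against 402 ± 40.0 and 13.6 ± 1.87 CPM in starved and fed control cells. In the interaction 0 of the 10 genes were called (median -0.39), near the share of all tested genes. Whether the 10 differ from the 29 was not tested. The interaction called 20 of the 29 lower and 0 higher (median -1.22). The most significant were DUSP5, a nuclear ERK phosphatase (-2.32, SE 0.16, adjusted p = 4.9e-06), KLF4, a Krüppel-like factor (-2.07, SE 0.15, adjusted p = 6.5e-06), and TRIB1, a pseudokinase (-2.14, SE 0.17, adjusted p = 1.5e-05). In fed cells OGDH loss already raised DUSP5 (1.04, adjusted p = 8.2e-04) and KLF4 (0.70, adjusted p = 0.0050), while TRIB1 stood at 0.11 (adjusted p = 0.72). TRIB1 averaged 48.9 ± 3.06 CPM in starved and 51.3 ± 3.41 CPM in fed OGDH-depleted cells, whereas EGR1 rose in the same libraries.

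Of the 13 tested ternary complex and CREB regulators, 0 were called on starvation of OGDH-depleted cells, and 3 rose and 1 fell in control cells, near the share of all tested genes. CRTC3, a CREB coactivator, averaged 42.3 ± 5.41 CPM in starved and 35.4 ± 4.16 CPM in fed OGDH-depleted cells, and 73.2 ± 12.4 and 35.4 ± 3.74 CPM in starved and fed control cells (control log2 1.05, SE 0.15, adjusted p = 3.1e-04; interaction -0.79, SE 0.22, adjusted p = 0.027). CREM, a CREB family member, rose by 0.43 (SE 0.09, adjusted p = 0.0031) in control cells, and so did its relative ATF1 (0.76, adjusted p = 0.011). MRTFB, an actin-regulated SRF coactivator, fell by 1.46 on the log2 scale in control cells (SE 0.33, adjusted p = 0.0055), and its interaction was 1.74 (SE 0.46, adjusted p = 0.024).

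Of 15 kinases of the ERK, p38, MSK and RSK arms, 1 rose and 0 fell on starvation of OGDH-depleted cells, and 4 rose and 3 fell in control cells, also near the share of all tested genes. MAP2K6 and MAP2K3, the kinases that activate p38, went opposite ways in control cells: MAP2K6 fell by 2.0 (SE 0.14, adjusted p = 1.2e-06) and MAP2K3 rose by 1.10 (SE 0.08, adjusted p = 2.4e-06). MAP2K6 was the kinase that rose in OGDH-depleted cells (0.54, adjusted p = 0.030), with an interaction of 2.54 (SE 0.19, adjusted p = 9.2e-06). Its level was low: 4.96 ± 0.487 CPM in starved and 3.40 ± 0.385 CPM in fed OGDH-depleted cells. In control cells it was 1.58 ± 0.0611 CPM when starved and 6.34 ± 0.104 CPM when fed. In fed cells MAP2K6 was already lower with OGDH loss (-0.90, adjusted p = 0.0044). RPS6KA2, an RSK kinase, rose by 1.45 in control cells (SE 0.17, adjusted p = 5.1e-05), and its interaction was -1.42 (SE 0.23, adjusted p = 0.0013). RPS6KA2 was already higher in fed OGDH-depleted cells, at 7.27 ± 0.658 CPM, against 2.19 ± 0.337 CPM in fed control cells (log2 1.73, adjusted p = 4.6e-04). The others called in control cells were BRAF (0.73) and the RSK kinase RPS6KA3 (0.78), which rose, and the p38 kinase MAPK14 (-0.71) and the RSK kinase RPS6KA1 (-0.99), which fell.

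Of 15 actin cytoskeleton targets of SRF and MRTF, 2 rose and 0 fell on starvation of OGDH-depleted cells, and 8 rose and 0 fell in control cells. The 2 were CCN1 (1.95, adjusted p = 9.7e-06) and CCN2 (1.47, adjusted p = 3.6e-05), secreted matricellular proteins that also stand on the immediate early list. ZYX, which encodes the focal adhesion protein zyxin, averaged 304 ± 19.9 CPM in starved and 267 ± 19.9 CPM in fed OGDH-depleted cells, and 408 ± 25.5 and 205 ± 19.1 CPM in starved and fed control cells. The interaction called 4 lower and 0 higher, among them ZYX (-0.81, SE 0.14, adjusted p = 0.0027), CCN2 (-0.85, SE 0.16, adjusted p = 0.0040) and TGFB1I1, a focal adhesion adaptor (-0.79, SE 0.19, adjusted p = 0.013). The fourth was FHL2, a LIM domain coactivator (-0.91, adjusted p = 0.049). In fed cells OGDH loss already raised CCN2 (0.81, adjusted p = 0.0042) and FHL2 (0.87, adjusted p = 0.045). ZYX (0.38, adjusted p = 0.076) and TGFB1I1 (0.13, adjusted p = 0.68) were not called there.

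Of 6 tested corepressors and nuclear receptor partners, 0 were called on starvation of OGDH-depleted cells, and 1 rose in control cells. That was NAB1, the relative of NAB2 (0.43, SE 0.11, adjusted p = 0.011).

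Of 14 tested textbook targets of EGR1, 3 rose and 1 fell on starvation of OGDH-depleted cells, and 7 rose and 0 fell in control cells. Those that rose in OGDH-depleted cells included F3 (0.69) and the adhesion molecule ICAM1 (0.58), and the 1 that fell was the cyclin CCND1 (-0.60). The interaction called 1 higher, ICAM1 (0.73, adjusted p = 0.0049), and 7 lower (median -0.59). EGR1 itself stood at 0.93 in it (95% interval -0.27 to 2.13) and was not called. F3, which encodes tissue factor, averaged 19.7 ± 0.166 CPM in starved and 12.2 ± 0.965 CPM in fed OGDH-depleted cells, and 61.1 ± 4.39 and 9.10 ± 0.364 CPM in starved and fed control cells (interaction -2.05, SE 0.14, adjusted p = 4.9e-06). PDGFA, a growth factor chain, had an interaction of -1.95 (SE 0.19, adjusted p = 4.3e-05). GDF15, a stress cytokine, rose by 2.74 in control cells (SE 0.19, adjusted p = 1.0e-06) and stood at 0.42 in OGDH-depleted cells (adjusted p = 0.18). GDF15 was already higher in fed OGDH-depleted cells, at 46.7 ± 4.37 CPM, against 18.7 ± 3.71 CPM in fed control cells (log2 1.32, adjusted p = 0.0035). PDGFA averaged 14.5 ± 2.14 CPM in starved OGDH-depleted and 52.7 ± 3.47 CPM in starved control cells, while the EGR1 libraries of these groups overlapped.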

How the data were processed

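RNA was sequenced from 12 A375 libraries; the library type is not given in the sources used here. The deposited table holds raw counts of read pairs per gene name, which the authors obtained with featureCounts 2.0.1 over exons, per the file headers. Strand was not used, and fragments with several map positions or several genes were not counted, so exons shared with an antisense gene yield no counts. The hg38 build and Subread are named in the submitters' processing notes, and the aligner is not given in the sources used here. Groups came from the sample titles.

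Counts were kept where edgeR's filterByExpr (minimum count 10, minimum total 15) passed them, which left 18526 of 61209 gene names with 99.9% of the counts. They were scaled by TMM and tested with edgeR 4.0.16 (R 4.3.3) by the quasi-likelihood test in 1 model over 12 libraries that fits the 4 group means. The 5 contrasts were starvation in either kind of cell, OGDH loss with and without glucose, and the interaction. The pairwise comparisons share groups and are not independent. P-values were adjusted by Benjamini-Hochberg over all tested genes, with a threshold of 0.05. RPKM used the deposited exonic length. Gene GC content for the GC offset was that of the longest GENCODE transcript, found for 81.9% of the tested genes. Alternatives were other scalings, filters, DESeq2 1.42.0, a replicate block, a GC offset, a fit of the compared groups alone, and fits without libraries. List counts come from the fit described here alone.

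The 10 genes, the lists and the 3 libraries left out together were chosen with earlier results of these data known. From each list, the 3 called genes with the smallest p in the starved against fed control comparison and in the interaction were named; others were named after their values were seen, and 1 gene that the rule takes is not reported here. Total counts of 21556273 to 25546615 a library gave the 10 genes 18 counts or more in every library, EGR4 having the fewest. Within groups no library repeated another: chi-square per degree of freedom between replicates was 3.76 to 154. Libraries of different groups were not compared in this way.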

Additional observations from a re-analysis of the deposited data

How the results depend on the processing

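Of 900 values of the 10 genes under alternatives, 827 kept their direction and side of the threshold. With the sign kept, 14 lost a call and 29 gained one. The other 30 changed sign, and among these IER2 for OGDH loss without glucose and NR4A2 in the interaction also gained a call without the 3 libraries. The starvation calls of the EGR1, EGR2, EGR3 and NR4A1 to NR4A3 genes held under all settings run. For the interaction, 0 of the 10 genes were called as reported and 1 with no filter on low counts. With a GC offset 3 were called, and 3 without the 3 libraries that stood apart. Of all tested genes, 17.3%, 6.42%, 26.8% and 43.0% were called in these settings, in that order. For OGDH loss with glucose, 1 was called as reported, 0 with a GC offset, 0 in a fit of the compared groups alone and 2 without the 3 libraries, where 3.04%, 7.64%, 1.22% and 10.8% of all tested genes were called; for OGDH loss without glucose, 2 as reported, 4 with a GC offset and 5 without the 3 libraries, where 28.7%, 39.2% and 52.6% of all tested genes were called. The causes were not tested. With each compared library left out in turn, the count was 7 to 9 for starvation of control cells and 6 throughout for OGDH-depleted cells. It was 0 to 1 for OGDH loss with glucose, 1 to 4 without glucose and 0 throughout for the interaction. The share of all tested genes called in those fits is not given here.

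Sign changes concerned values that were not called as reported. SRF on starvation of control cells (0.00) was -0.06 with upper-quartile scaling, -0.29 with library totals alone, -0.01 without mitochondrial genes, -0.03 with no filter, -0.12 without the 3 libraries, -0.01 in the compared groups alone, and -0.11 to 0.08 with a library left out; on starvation of OGDH-depleted cells it was 0.16 with a GC offset. For OGDH loss without glucose, IER2 was 0.20 with library totals alone, 0.02 with no filter, 0.02 with the replicate block, 0.65 without the 3 libraries and -0.33 to 0.45 with a library left out. In that comparison EGR1 was -0.38 and EGR3 -0.18 without the 3 libraries, and -0.02 to 0.55 and -0.06 to 0.23 with a library left out. In the interaction, library totals alone gave 0.06 for NR4A3 and 0.08 for SRF, and leaving out the 3 libraries gave -0.10 for EGR1, -0.58 for NR4A2 and 0.44 for IER2, with -0.18 to 0.21 for NR4A2 when 1 library was left out.

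With library totals alone the median of all genes shifted to -0.30 for starvation of control cells (25.2% of calls higher, against 49.2%), 0.25 for OGDH loss without glucose (73.7% against 47.7%) and 0.24 for the interaction (74.0% against 48.1%), and IER2 lost its starvation call in control cells (0.89, adjusted p = 0.11). Same-numbered libraries showed no common direction of deviation (18 pairs, r of -0.69 to 0.64, 7 above 0.1), and other pairs ranged from -0.75 to 0.70. The labels do not say what a number marks. Composition differed among replicates, so these values cannot settle whether the numbers pair the samples. A replicate block called 9 of the 10 genes for starvation of control cells, adding NAB2 (0.94, adjusted p = 0.048), and 7 for OGDH-depleted cells, adding EGR4 (0.99, adjusted p = 0.040). With the block, 32.6% of all tested genes were called for starvation of control cells and 5.46% for OGDH-depleted cells. EGR4 had the fewest counts, 18 in its lowest library.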
